A study of Mus musculus with 8 samples.

Results

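The 10 genes described here encode the exchangeable parts of the mouse proteasome: 3 constitutive catalytic subunits (Psmb5, Psmb6 and Psmb7), 3 immunoproteasome subunits (Psmb8, Psmb9 and Psmb10), the thymoproteasome subunit Psmb11, and 3 subunits of the PA28 activators (Psme1, Psme2 and Psme3). They were chosen by gene family and not by their values, out of 56923 genes in the count files. All 10 passed the filter on low counts. They were measured in thymic epithelial cells (TECs) from wild-type C57BL/6J embryos at E16.5, in 4 groups of 2 libraries. TECs were sorted for the epithelial surface protein EpCAM and either lysed at once (in vivo), or cultured for 3 days as a monolayer on laminin-coated plates (2D), or grown in Matrigel, a basement membrane gel, as organoids collected on day 3 (D3) or day 7 (D7). The cultured groups were kept in medium with FGF7, a growth factor for epithelia. The organoids also received the ROCK inhibitor thiazovivin during the first 2 days, and whether the 2D cultures did is not stated. Sorted cells are described as caught in medium with that inhibitor and serum. The libraries of a group are described as separate mice, and it is not stated whether embryos were pooled or whether a mouse served more than 1 group. Culture form and days in culture differ together between 2D and D7 organoids, whereas 2D and D3 organoids had the same number of days.

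The proteasome is a barrel of rings that cuts proteins into peptides, and its inner β rings hold the cutting sites β1, β2 and β5. In cells exposed to interferon, and in most blood cells, newly made barrels take up the immuno forms β1i (Psmb9), β2i (Psmb10) and β5i (Psmb8) in place of β1 (Psmb6), β2 (Psmb7) and β5 (Psmb5). Cortical TECs have a form of their own, β5t (Psmb11), which joins β1i and β2i in the thymoproteasome, and the peptides it makes for MHC class I are needed to select CD8 T cells. PA28α (Psme1) and PA28β (Psme2) together cap the ends of the barrel and help it to release peptides, and PA28γ (Psme3) forms a separate cap in the nucleus.

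The counts come from QuantSeq 3′ libraries, in which each polyadenylated transcript gives a read near its 3′ end, so no correction for gene length was made. Levels are given as CPM, the count relative to the library total after scaling by edgeR's TMM method, and differences as the log2 fold change of the first-named group over the second. They were fitted by edgeR's quasi-likelihood method to the 8 libraries together, and p was adjusted over 14504 genes by the Benjamini-Hochberg procedure. A gene was called where the adjusted p was at most 0.05. With 2 libraries a group, an exact permutation test of a single value cannot go below p = 0.333, so these calls rest on a spread estimated across genes and groups. Library totals were between 5084715 and 7612532 counts. Of the markers checked, all 10 TEC genes were detected in every group, with a summed level of 4585 to 5070 CPM in vivo, 8398 to 8981 CPM in 2D, 2492 to 2867 CPM in D3 and 2421 to 2447 CPM in D7 organoids. Within this sum, Foxn1, Pax1 and Pax9 had lower means in 2D than in vivo, and the other TEC genes had higher ones. Pax1 averaged 1320 CPM in vivo and 357 CPM in 2D, and Krt18 averaged 1747 and 3377 CPM. The 8 cortical TEC genes other than Psmb11 summed to 8074 to 8362 CPM in vivo, 673 to 777 CPM in 2D, 446 to 464 CPM in D3 and 1037 to 1123 CPM in D7 organoids. The in vivo libraries also held thymocyte transcripts, with 12 markers at a summed 728 CPM in library 1 and 318 CPM in library 2, against 3.72 to 13.7 CPM in the cultured groups. Since these are bulk samples, fewer cells of a type and less RNA per cell cannot be told apart.

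Psmb11, Psmb9, Psmb10 and Psmb8 were called higher in TECs lysed at once than in each of the 3 cultures, and the other 6 stayed within a narrower range (see the plot of levels by library). In vivo against 2D, 7 of the 10 genes were called: Psmb8, Psmb9, Psmb10 and Psmb11 were higher in vivo, and Psmb7, Psme1 and Psme3 were lower. Over all genes 41.6% were called in this comparison, 21.7% higher and 19.9% lower in vivo. The median log2 fold change of the 10 genes was 0.08, beside 0.06 for all genes. In vivo against D7 organoids, 7 were called, with Psmb7, Psmb8, Psmb9, Psmb10, Psmb11 and Psme2 higher and Psme1 lower in vivo, where 34.8% of all genes were called (16.8% higher and 18.0% lower). Here the median of the 10 genes was 0.98, beside -0.01 for all genes. In vivo against D3 organoids, 4 were called, again Psmb8, Psmb9, Psmb10 and Psmb11, all higher in vivo, against 28.2% of all genes (14.0% higher and 14.1% lower), with a median of 0.43 beside 0.01.

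Among the cultures, D7 organoids against 2D gave 6 called genes, with Psmb9, Psmb10 and Psmb11 higher in D7 organoids and Psmb5, Psmb7 and Psme2 lower. The share called over all genes was 45.5%, with 24.4% higher and 21.1% lower in D7 organoids. D3 organoids against 2D gave 4 called genes, Psmb10 higher and Psmb7, Psmb8 and Psme1 lower in D3 organoids, against 38.3% of all genes (19.3% higher and 19.1% lower). Between the organoid days, 6 were called, with Psmb9, Psmb10, Psmb11 and Psme1 higher and Psmb7 and Psme2 lower on day 7, against 20.8% of all genes (10.9% higher and 9.91% lower). The medians of the 10 genes in these 3 comparisons were -0.36, -0.36 and 0.46, beside 0.10, 0.03 and 0.06 for all genes. The comparisons share libraries and are therefore not independent of each other. No called gene had libraries that overlapped between its groups, which adds nothing to the calls. With 2 libraries a group, a call favours such separation, and its share over all genes is not given here.

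**Figure D1:**
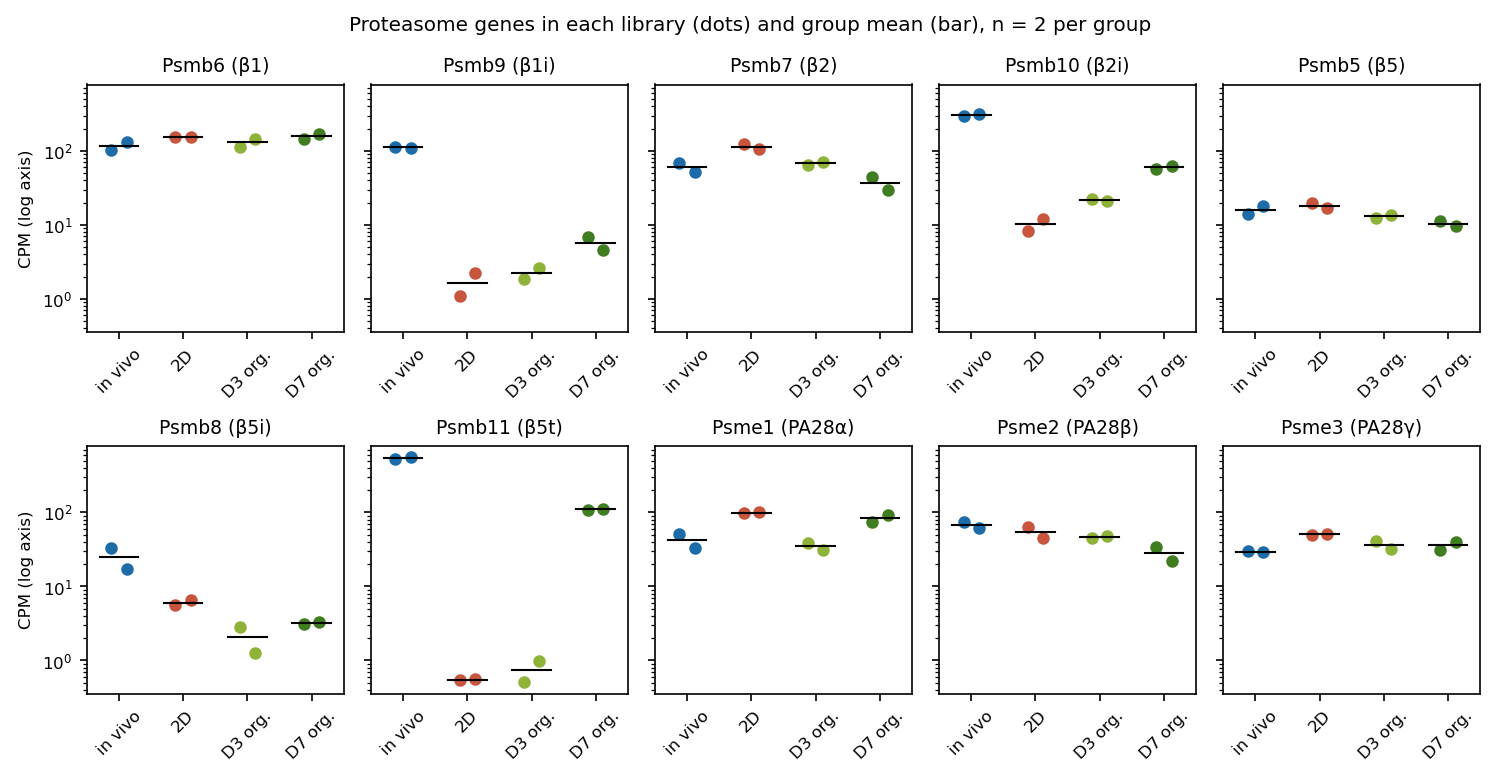
Level of each gene in each library, in CPM on a log axis, with 1 dot per library, a bar at the mean of the 2 libraries of a group, and 1 panel per gene. Psmb11 sits between 523 and 556 CPM in vivo, at 106 to 113 CPM in D7 organoids and below 1 CPM in 2D and D3 organoids, while Psmb6 stays between 102 and 167 CPM in all 8 libraries.

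The promoters of these 4 genes are printed because they were called in the same direction between in vivo TECs and every culture. The sequences are from RefSeq on build GRCm38.p6 and run from 250 bases before to 50 bases from the transcription start, on the strand of the gene. Of the 10 genes, 9 had an entry, and Psmb7 had none. Capitals mark matches, on either strand, to any of 4 short motifs: GACGC, the core recognised by Foxn1, the transcription factor of TEC identity, and the interferon response core GAAANNGAA, the STAT core TTCNNNGAA (which reads the same on both strands) and TGACNNNGC, the core for Nfe2l1 and Nfe2l2, the factors that induce proteasome genes under stress.
Psmb11, chr14:54625060-54625359, plus strand: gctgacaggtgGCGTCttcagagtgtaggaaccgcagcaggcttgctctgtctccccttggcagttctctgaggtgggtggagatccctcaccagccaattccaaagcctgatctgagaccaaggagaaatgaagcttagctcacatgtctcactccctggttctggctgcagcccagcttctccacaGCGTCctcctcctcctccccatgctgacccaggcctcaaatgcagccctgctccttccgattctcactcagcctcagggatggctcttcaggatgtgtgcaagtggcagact
Psmb9, chr17:34187281-34187580, minus strand: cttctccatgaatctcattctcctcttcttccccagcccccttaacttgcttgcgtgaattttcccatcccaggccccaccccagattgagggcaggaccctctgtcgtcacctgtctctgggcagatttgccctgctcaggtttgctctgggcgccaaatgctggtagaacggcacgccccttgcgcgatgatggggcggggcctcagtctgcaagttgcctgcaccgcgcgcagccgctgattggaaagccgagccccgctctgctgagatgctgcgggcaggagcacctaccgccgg
Psmb10, chr8:105938343-105938642, minus strand: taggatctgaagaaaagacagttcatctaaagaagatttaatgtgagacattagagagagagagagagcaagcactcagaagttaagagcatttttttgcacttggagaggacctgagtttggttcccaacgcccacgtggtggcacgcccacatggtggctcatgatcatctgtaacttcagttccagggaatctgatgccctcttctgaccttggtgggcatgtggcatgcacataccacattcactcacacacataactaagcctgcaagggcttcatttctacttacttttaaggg
Psmb8, chr17:34197945-34198244, plus strand: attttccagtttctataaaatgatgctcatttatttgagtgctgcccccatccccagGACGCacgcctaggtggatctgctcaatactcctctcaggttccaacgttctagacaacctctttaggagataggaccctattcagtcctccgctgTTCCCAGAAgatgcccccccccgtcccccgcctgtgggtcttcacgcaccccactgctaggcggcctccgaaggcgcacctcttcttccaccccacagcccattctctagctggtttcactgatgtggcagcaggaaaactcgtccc

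The Psmb11 promoter held 2 GACGC matches, both read on the opposite strand as GCGTC, at -239 to -235 and at -62 to -58 from the start. The Psmb8 promoter held a GACGC match at -193 to -189 and a STAT core at -97 to -89. No match to the 4 motifs lay in the windows of Psmb9 and Psmb10, and the Psmb9 window overlaps that of Tap1, which encodes a subunit of the peptide transporter for MHC class I and is read from the other strand. Of the members not printed, Psmb5 and Psmb6 each held 1 TGACNNNGC match, Psme1 held 1 GAAANNGAA match, and Psme2 and Psme3 each held a GACGC match. Over 32851 promoter windows of this length, 27.2% held GACGC, 8.56% held GAAANNGAA, 8.30% held TTCNNNGAA and 12.4% held TGACNNNGC. No 2 matches overlapped in any window of these genes, and a match is a description of letters that says nothing about binding.

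At the β5 site, Psmb11 (β5t) had the highest level of the 10 genes in vivo and was close to the detection limit in 2D. The gene lies at chr14:54858890-54867013 on build GRCm39, beside Psmb5 (chr14:54850776-54855481). Psmb11 measured 523 and 556 CPM in the in vivo libraries, 0.546 and 0.557 CPM in 2D, 0.507 and 0.979 CPM in D3 organoids, and 106 and 113 CPM in D7 organoids. These levels rest on 3006 and 3942 counts in vivo, 3 and 3 counts in 2D, 3 and 7 counts in D3 organoids, and 858 and 570 counts in D7 organoids. The in vivo and D7 libraries lay far above the others, and the 2D and D3 libraries overlapped. The ratio of summed levels was 982 between in vivo and 2D (95% exact counting interval 451 to 2677) and 708 between in vivo and D3 organoids (384 to 1476). D7 organoids were above D3 organoids by a ratio of 142 (77.1 to 297) and above 2D by 197 (90.5 to 539). These intervals cover counting error only, and the fitted fold against 2D is left out because a count of 3 was taken as the floor of detection. In all 4 of these comparisons edgeR's adjusted p was at most 4.4e-11.

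Psmb11 in D7 organoids remained below the level of in vivo TECs, which was 4.93-fold higher (log2 fold change 2.30, SE 0.16, adjusted p = 7.4e-09 by edgeR). D3 organoids and 2D did not differ detectably at this depth (log2 fold change 0.46, SE 0.60, adjusted p = 0.64 by edgeR). All 8 of the other cortical TEC markers also had their highest mean in vivo. For Prss16, Ly75, Ccl25, Dll4 and Tbata both D7 libraries lay above every 2D and D3 library, as for Psmb11. Ctsl, in contrast, averaged 664 CPM in 2D and 263 CPM in D7 organoids, Cxcl12 averaged 259 CPM in D3 and 254 CPM in D7 organoids, and Enpep overlapped between 2D and D7 organoids. Foxn1 itself measured 224 and 274 CPM in vivo, 8.55 and 4.83 CPM in 2D, 8.79 and 9.65 CPM in D3 organoids, and 60.7 and 85.2 CPM in D7 organoids, and the part of Foxn1 or of the markers in the Psmb11 result was not tested.

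Psmb8 (β5i, chr17:34416690-34420428) was also highest in vivo but, unlike Psmb11, did not differ detectably between D7 and D3 organoids. It measured 33.2 and 17.2 CPM in vivo, 5.64 and 6.50 CPM in 2D, 2.87 and 1.26 CPM in D3 organoids, and 3.10 and 3.36 CPM in D7 organoids. The in vivo libraries were above all 6 cultured libraries but differed between themselves, and the higher one was the library with more thymocyte transcripts. The level in vivo was 4.13-fold that in 2D (log2 fold change 2.05, SE 0.42, adjusted p = 0.00079 by edgeR), 12.3-fold that in D3 organoids (3.62, SE 0.47, adjusted p = 1.3e-05) and 7.77-fold that in D7 organoids (2.96, SE 0.44, adjusted p = 6.1e-05). Against D3 organoids the value was 3.05 without D3 library 2 and 4.30 without D3 library 1, and it stayed called in both cases. Thymocytes belong to the blood lineage and can carry immunoproteasome transcripts, and their part in the 3 in vivo differences was not tested.

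Among the cultures, Psmb8 was 2.98-fold higher in 2D than in D3 organoids (log2 fold change -1.58 for D3 over 2D, SE 0.49, adjusted p = 0.018 by edgeR). Without D3 library 1 it was -2.25 (adjusted p = 0.015 by edgeR). That call was lost without 2D library 2 (-1.47, adjusted p = 0.083 by edgeR), without D3 library 2 (-1.05, adjusted p = 0.18) and with limma-voom (-1.68, adjusted p = 0.07). D7 organoids did not pass the test against 2D (-0.91, SE 0.47, adjusted p = 0.12) or against D3 organoids (0.66, SE 0.52, adjusted p = 0.40). The D3 values rest on 17 and 9 counts.

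Psmb5 (β5) had the lowest mean in vivo level of the 7 catalytic genes and a narrow range over the groups. It measured 14.1 and 18.1 CPM in vivo, 19.8 and 16.7 CPM in 2D, 12.5 and 13.7 CPM in D3 organoids, and 11.2 and 9.69 CPM in D7 organoids. The D7 libraries were the lowest, and 5 of the 6 comparisons did not pass the test, with log2 fold changes between -0.48 and 0.62. D7 organoids were 1.74-fold below 2D (log2 fold change -0.80, SE 0.29, adjusted p = 0.03 by edgeR). This call was lost with library size as the only scaling (-0.59, adjusted p = 0.11) and without 2D library 1 (-0.67, adjusted p = 0.16), D7 library 1 (-0.91, adjusted p = 0.08) or D7 library 2 (-0.71, adjusted p = 0.16). Of the 50-base words in the last 500 bases of Psmb5, 7.54% occur at the 3′ ends of 10 other genes. For Psmb11 the share was 3.33%, with 45 other genes, and how reads with several matches were counted is not stated.

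As shares of the counts at the β5 site, Psmb11 took 92.9% ± 1.65 (SD, n = 2) in vivo and 88.9% ± 1.02 in D7 organoids, but 2.22% ± 0.174 in 2D and 4.67% ± 2.09 in D3 organoids. Psmb5 took the largest share in 2D, 73.3% ± 4.18, and in D3 organoids, 82.3% ± 5.12. Psmb8 held 24.5% ± 4.01 in 2D, 13% ± 7.21 in D3 organoids, 4.37% ± 2.06 in vivo and 2.62% ± 0.0732 in D7 organoids. Thus β5t transcripts made up most of the site in vivo and on day 7, and β5 transcripts did in 2D and on day 3. Between these pairs of groups the Psmb11 shares did not overlap, and an exact permutation test of 2 against 2 libraries gave p = 0.333, the smallest it can give. In single libraries the Psmb11 share was 2.10% in 2D library 1 (exact Clopper-Pearson 95% interval 0.435% to 6.01%, 143 counts at the site) and 88.2% in D7 library 1 (86.0% to 90.1%, 973 counts). A share compares the 3′ reads of different genes, whose capture may differ, and its changes between groups do not depend on library scaling.

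At the β1 site, Psmb9 (β1i, chr17:34400960-34406738) had the widest range after Psmb11. It measured 113 and 111 CPM in vivo, 1.09 and 2.23 CPM in 2D, 1.86 and 2.66 CPM in D3 organoids, and 6.82 and 4.55 CPM in D7 organoids. The in vivo libraries agreed closely and were far above the rest, and the D7 libraries came next. In vivo TECs were 67.0-fold above 2D (log2 fold change 6.07, SE 0.33, adjusted p = 1.9e-10 by edgeR), 48.6-fold above D3 organoids (5.60, SE 0.31, adjusted p = 4.5e-10) and 19.2-fold above D7 organoids (4.26, SE 0.27, adjusted p = 3.3e-09). D7 organoids were 3.49-fold above 2D (1.80, SE 0.39, adjusted p = 0.0012 by edgeR), and D3 organoids and 2D did not differ detectably (0.46, SE 0.45, adjusted p = 0.45). Without 2D library 2 the differences from 2D were larger, at 6.66 in vivo and 2.40 in D7 organoids.

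The rise of Psmb9 from D3 to D7 organoids was 2.53-fold (log2 fold change 1.34, SE 0.35, adjusted p = 0.012 by edgeR), on 11 and 19 counts against 55 and 23. It was lost without D3 library 1 (1.13, adjusted p = 0.10 by edgeR), without D7 library 1 (0.99, adjusted p = 0.16) and with limma-voom (1.34, adjusted p = 0.096). Psmb9 exons overlap exons of Tap1 on the opposite strand, and Tap1 had 45 to 446 counts per library. The strand used in counting is not stated, so reads of the overlap cannot be told apart here.

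The constitutive partner Psmb6 (β1, chr11:70416183-70418684) passed the test in none of the 6 comparisons. It measured 102 and 132 CPM in vivo, 154 and 154 CPM in 2D, 115 and 146 CPM in D3 organoids, and 147 and 167 CPM in D7 organoids. The in vivo libraries were the lowest on average, with log2 fold changes of -0.40 against 2D (SE 0.17, adjusted p = 0.078 by edgeR) and -0.42 against D7 organoids (SE 0.17, adjusted p = 0.072). With no adjustment, 2 of the 6 comparisons had a p under 0.05 by edgeR. Both were called under other settings. In vivo against 2D passed without the filter (-0.47, adjusted p = 0.039 by edgeR), with ribosomal RNA genes left out (-0.45, adjusted p = 0.047), with a replicate block (-0.41, adjusted p = 0.029), without in vivo library 2 (-0.61, adjusted p = 0.032) and without D3 library 2 (-0.45, adjusted p = 0.038). In vivo against D7 organoids passed with limma-voom (-0.42, adjusted p = 0.048), with the block (-0.43, adjusted p = 0.027) and without in vivo library 2 (-0.62, adjusted p = 0.033). By DESeq2's Wald test 0 of the 6 were called. Psmb9 accordingly took 49.2% ± 4.90 (SD, n = 2) of the counts at the β1 site in vivo, 1.06% ± 0.512 in 2D, 1.69% ± 0.131 in D3 organoids and 3.55% ± 1.27 in D7 organoids.

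At the β2 site, Psmb10 (β2i, chr8:106662362-106665077) followed a graded order in which every step passed the test. It measured 8.37 and 12.1 CPM in 2D, 22.5 and 21.1 CPM in D3 organoids, 57.7 and 62.9 CPM in D7 organoids, and 292 and 313 CPM in vivo. No libraries of neighbouring groups overlapped. In vivo TECs were 5.03-fold above D7 organoids (log2 fold change 2.33, SE 0.18, adjusted p = 2.4e-08 by edgeR), D7 were 2.76-fold above D3 organoids (1.47, SE 0.19, adjusted p = 4.8e-05), and D3 organoids were 2.13-fold above 2D (1.09, SE 0.21, adjusted p = 0.00058). Between the ends of the order, in vivo TECs were 29.6-fold above 2D (4.89, SE 0.21, adjusted p = 1.2e-11 by edgeR). Psmb10 kept its calls in all 6 comparisons under every alternative setting tried, and it was the only immunoproteasome gene called in all 6.

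Psmb7 (β2, chr2:38478044-38534099) moved the other way among the cultures. It measured 69.6 and 51.8 CPM in vivo, 123 and 106 CPM in 2D, 63.7 and 71.6 CPM in D3 organoids, and 43.8 and 30.1 CPM in D7 organoids. The 2D libraries were the highest and the D7 libraries the lowest, with in vivo and D3 organoids overlapping between them. Psmb7 was 1.89-fold lower in vivo than in 2D (log2 fold change -0.92, SE 0.21, adjusted p = 0.0017 by edgeR) and 3.07-fold lower in D7 organoids than in 2D (-1.62, SE 0.21, adjusted p = 9.1e-06). In vivo TECs and D3 organoids did not pass the test (-0.16, SE 0.21, adjusted p = 0.62).

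Smaller steps of Psmb7 were less stable. D3 organoids were below 2D (log2 fold change -0.76, SE 0.20, adjusted p = 0.0075 by edgeR), which was lost with library size as the only scaling (-0.49, adjusted p = 0.081), without 2D library 1 (-0.64, adjusted p = 0.078) and without D3 library 1 (-0.67, adjusted p = 0.064). D7 organoids were below D3 organoids (-0.86, SE 0.21, adjusted p = 0.0079 by edgeR) unless D7 library 2 was left out (-0.63, adjusted p = 0.13). In vivo TECs were above D7 organoids (0.70, SE 0.21, adjusted p = 0.016 by edgeR) unless in vivo library 1 (0.48, adjusted p = 0.17) or D7 library 2 (0.47, adjusted p = 0.20) was left out. Psmb7 exons overlap those of Nek6, a mitotic kinase on the opposite strand with 97 to 337 counts per library.

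Psmb10 took 8.31% ± 2.74 (SD, n = 2) of the counts at the β2 site in 2D, 24.4% ± 2.34 in D3 organoids, 62.3% ± 7.65 in D7 organoids and 83.3% ± 3.56 in vivo. The 3 sites thus differed in D7 organoids: the thymus-specific β5t held 88.9% of its site, β2i 62.3% and β1i 3.55%. In vivo the corresponding values were 92.9%, 83.3% and 49.2%. Psmb9 therefore had the lowest share of the 3 thymoproteasome subunits in both groups, and in D7 organoids Psmb10 gave 8.45 and 13.8 counts for each Psmb9 count, against 2.58 and 2.83 in vivo. These shares also rest on the constitutive partners Psmb5, Psmb7 and Psmb6. They averaged 10.4, 36.9 and 157 CPM in D7 organoids, and 16.1, 60.7 and 117 CPM in vivo. Since 3′ capture may differ between genes, the order of the sites is one of counts and does not measure which subunits fill the barrel. In CPM, the 3 immunoproteasome genes summed to 15.1 and 20.8 in 2D, 27.2 and 25.0 on day 3, 67.6 and 70.8 on day 7, and 439 and 441 in vivo. The 3 constitutive genes summed to 186 to 297 CPM in all 8 libraries.

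**Figure D2:**
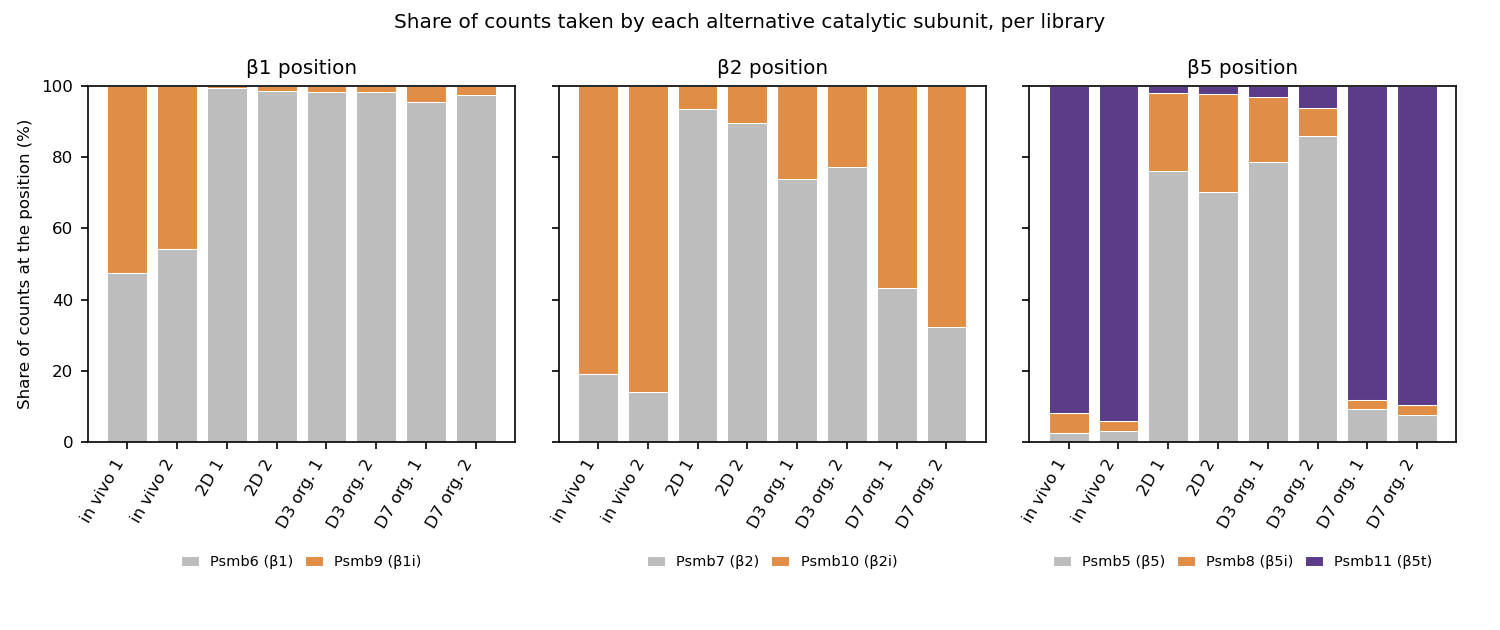
Share of the counts at each catalytic site that fell on each alternative subunit, in % per library, with constitutive subunits in grey, immuno forms in orange and β5t in purple. β5t fills 88.2% to 94.0% of the β5 bars of the in vivo and D7 libraries and 2.10% to 6.14% of those of 2D and D3, whereas Psmb9 is a large part of the β1 bars in vivo (45.7% to 52.6%) and at most 4.45% elsewhere.

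Thymocyte markers were at 318 to 728 CPM in vivo, where the 3 immunoproteasome genes were also highest. In the cultures 7 to 10 of the 12 markers were at 3 counts or fewer in both libraries of a group, and the defining genes Ptcra and Rag2 were at 0 in all 6 cultured libraries. Between the in vivo libraries the thymocyte sum differed, at 728 CPM in library 1 and 318 CPM in library 2, and in the same order Psmb8 was at 33.2 and 17.2 CPM, Psmb9 at 113 and 111 CPM, Psmb10 at 292 and 313 CPM and Psmb11 at 523 and 556 CPM. The part of thymocytes in the in vivo levels of these genes was not tested. In D7 organoids, where Psmb9, Psmb10 and Psmb11 were above D3, the thymocyte sum was 5.46 to 10.9 CPM, beside 3.72 to 4.75 CPM in D3 organoids. The 10 myeloid markers summed to 11.7 to 12.5 CPM in D7 and 0.419 to 0.845 CPM in D3 organoids, mostly from Lyz2, with 7 of the 10 at 0 in both D7 libraries, and their part in these differences was not tested. Mesenchyme markers (6 genes) summed to 40.5 to 41.9 CPM in vivo, 21.0 to 25.6 CPM in 2D, 17.3 to 21.8 CPM in D3 and 67.6 to 76.0 CPM in D7 organoids. The D7 sum came mostly from Dcn and Lum, which averaged 52.3 and 11.2 CPM there, and 20.7 and 1.90 CPM in vivo. Pdgfrb and Col1a1 averaged 0.124 and 1.34 CPM in D7 organoids, and 6.21 and 6.22 CPM in vivo. Col1a2 averaged 6.34 CPM in D7 organoids and 6.18 CPM in vivo, and Pdgfra 0.533 and 0 CPM. The 4 endothelial markers were at 4.70 to 5.22 CPM in vivo and at most 0.989 CPM elsewhere, and the 6 erythroid markers at 7.31 to 12.0 CPM in vivo and at most 2.17 CPM elsewhere.

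**Figure D3:**
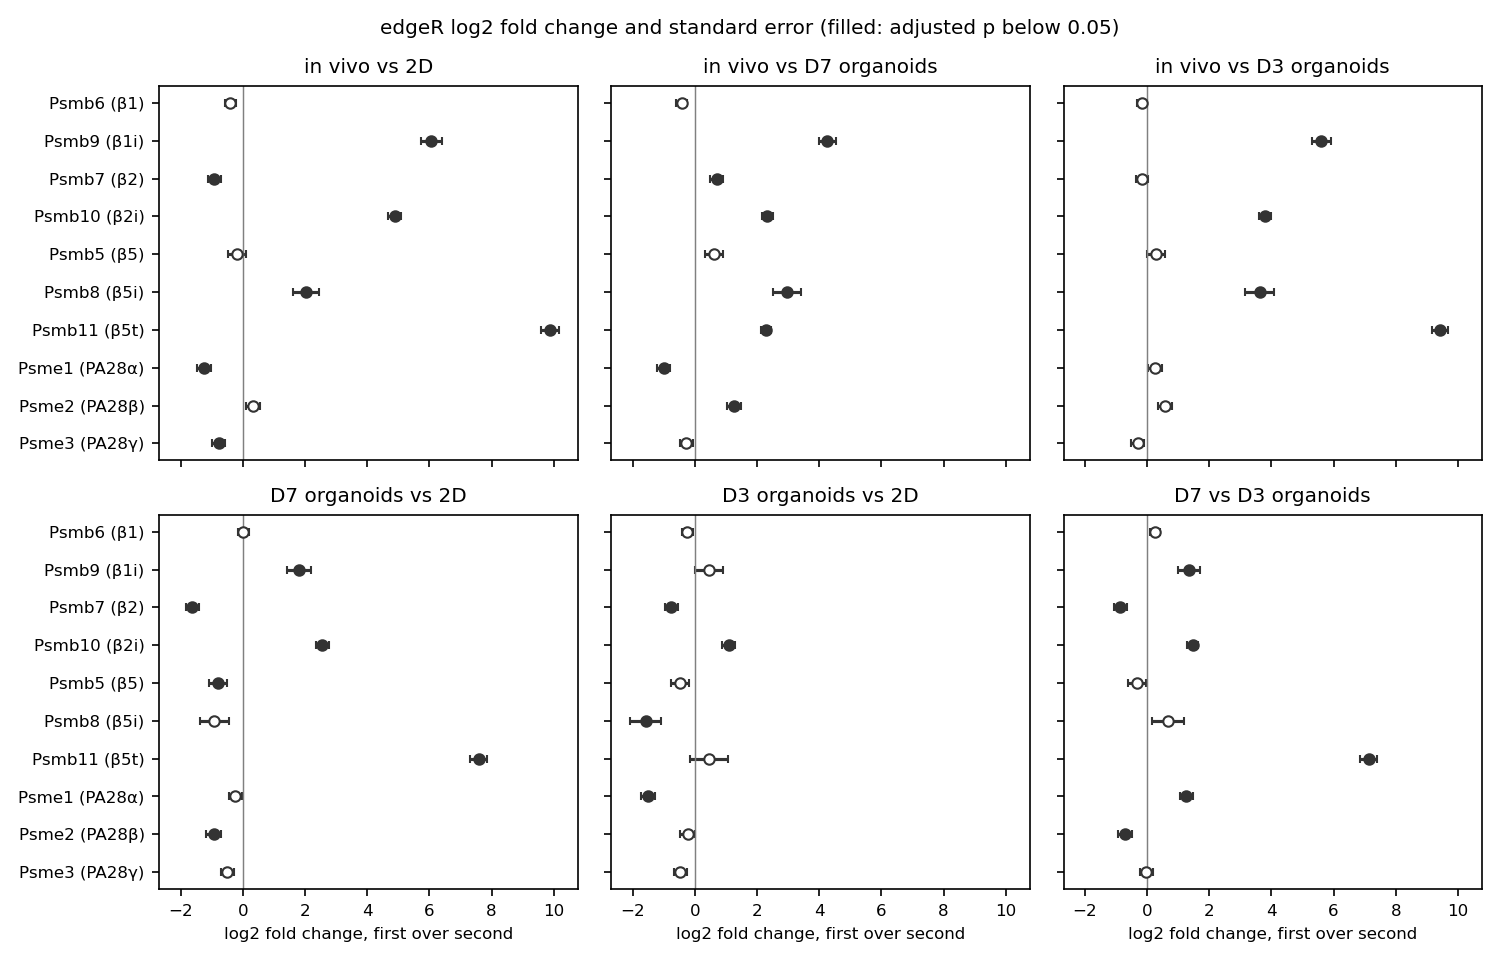
The log2 fold change of each of the 10 genes in each of the 6 comparisons, first-named group over second, with bars for the standard error of the fit on all 8 libraries and filled points where the adjusted p was at most 0.05. The 3 in vivo panels share filled points far to the right for Psmb9, Psmb10, Psmb8 and Psmb11, while the constitutive genes and activators lie between -1.24 and 1.26 there.

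The 3 PA28 subunits differed from each other in the order of the groups. Psme1 (PA28α, chr14:55815190-55822034) measured 51.2 and 32.6 CPM in vivo, 97.3 and 99.9 CPM in 2D, 38.9 and 30.9 CPM in D3 organoids, and 74.6 and 93.5 CPM in D7 organoids. The 2D and D7 libraries were high and the in vivo and D3 libraries low, with no overlap between the high and low pairs. Psme1 was 2.36-fold lower in vivo than in 2D (log2 fold change -1.24, SE 0.22, adjusted p = 0.00020 by edgeR) and 2.01-fold lower in vivo than in D7 organoids (-1.01, SE 0.22, adjusted p = 0.0017). D3 organoids were 2.83-fold below 2D (-1.50, SE 0.22, adjusted p = 3.6e-05 by edgeR), and D7 were 2.41-fold above D3 organoids (1.27, SE 0.22, adjusted p = 0.00071). These 4 calls held under every alternative setting tried.

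Psme2 (PA28β, chr14:55824895-55829173) ran in a different order, from in vivo down to D7 organoids. It measured 73.8 and 62.3 CPM in vivo, 62.9 and 45.1 CPM in 2D, 44.4 and 47.4 CPM in D3 organoids, and 34.2 and 21.7 CPM in D7 organoids. Only the D7 libraries were clear of all others, and in vivo TECs were 2.40-fold above them (log2 fold change 1.26, SE 0.23, adjusted p = 0.00042 by edgeR). D7 organoids were below 2D (-0.93, SE 0.23, adjusted p = 0.0037 by edgeR), a call lost without 2D library 1 (-0.67, adjusted p = 0.076) or D7 library 2 (-0.66, adjusted p = 0.061). In vivo against 2D gave 0.33 (SE 0.23, adjusted p = 0.26) and in vivo against D3 organoids 0.57 (SE 0.23, adjusted p = 0.072).

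The lower Psme2 of D7 against D3 organoids (log2 fold change -0.70, SE 0.23, adjusted p = 0.042 by edgeR) was lost without D3 library 1 (-0.74, adjusted p = 0.11), D3 library 2 (-0.72, adjusted p = 0.12) or D7 library 2 (-0.42, adjusted p = 0.39), and was -1.08 without D7 library 1 (adjusted p = 0.014). Psme2 has a near copy, Psme2b, and 55.4% of the 50-base words in its last 500 bases occur in that gene or in the pseudogene Gm7928. Psme2b had 29 to 169 counts per library. With the counts of Psme2 and Psme2b summed, the D7 to D3 difference was -0.29 (adjusted p = 0.33 by edgeR), in vivo against D3 organoids passed the test (0.66, adjusted p = 0.017), and so did D3 organoids against 2D (-0.62, adjusted p = 0.019). These 3 calls therefore change with how reads of the copies are counted.

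Although the PA28α and PA28β proteins work as one ring, the ratio of Psme1 to Psme2 counts was 0.693 and 0.523 in vivo, 0.875 and 0.652 in D3 organoids, 1.55 and 2.21 in 2D, and 2.18 and 4.30 in D7 organoids. The in vivo and D3 libraries were below 1 and the 2D and D7 libraries above it. With the counts of Psme2b added to those of Psme2, the ratios were 0.576 and 0.407 in vivo, 0.788 and 0.539 in D3 organoids, 1.04 and 1.43 in 2D, and 1.55 and 2.43 in D7 organoids. Psme3 (PA28γ, chr11:101206777-101215813) was the most even of the 3 genes, at 30.1 and 29.1 CPM in vivo, 49.1 and 51.6 CPM in 2D, 40.9 and 31.9 CPM in D3 organoids, and 31.5 and 40.3 CPM in D7 organoids. Its 2D libraries were the highest, and 1 comparison passed the test, with in vivo TECs 1.70-fold below 2D (log2 fold change -0.77, SE 0.21, adjusted p = 0.0075 by edgeR).

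Around these exchangeable parts, the common body of the proteasome was measured through 31 further subunits of the 20S core and the 19S cap, of which 30 were tested. In vivo against 2D, 13 were called, 12 lower and 1 higher in vivo (median log2 fold change -0.37), where 41.6% of all genes were called and 19.9% were lower. D7 organoids against 2D gave 16 called, all lower in D7 organoids (median -0.44, beside 45.5% of all genes called and 21.1% lower), and D3 organoids against 2D gave 11, all lower in D3 organoids (median -0.39, beside 38.3% and 19.1%). In vivo against D3 organoids, 3 were called, 2 higher and 1 lower (median 0.03, beside 28.2% of all genes). In vivo against D7 organoids, 14 were called, 10 higher and 4 lower in vivo (median 0.20, beside 34.8%), and D7 against D3 organoids gave 11, with 3 higher and 8 lower on day 7 (median -0.16, beside 20.8%). Apart from Psmb4, higher in vivo, every call against 2D was toward a higher level in 2D. Counts against 2D depended on the scaling: with library size alone, which moved the median of all genes to 0.24, 0.31 and 0.29 in the in vivo, D7 and D3 comparisons with 2D, they were 8, 13 and 5, with 7, 12 and 5 of them higher in 2D. Without 2D library 1, 8 were called in vivo against 2D and 6 in D3 organoids against 2D. Without D7 library 2, 8 were called in vivo against D7 organoids and 5 in D7 against D3 organoids, and without in vivo library 1, 8 were called in vivo against D7 organoids.

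The lists described from here on are small and are to be read beside the same shares of all genes, 41.6% called in vivo against 2D, 34.8% in vivo against D7 organoids and 45.5% in D7 organoids against 2D. In the outer α ring, which gates entry to the barrel, 7 of 8 genes were tested. In vivo against 2D, 0 were called by edgeR, DESeq2 or limma-voom, with 0 at an unadjusted p under 0.05 by edgeR, and log2 fold changes lay between -0.29 and 0.14. In vivo against D7 organoids 4 were called, all higher in vivo (median 0.61), of which 2 were left without in vivo library 1 or without D7 library 2, and D7 organoids against 2D gave 4, all lower in D7 organoids (median -0.81). Psma7, the most abundant, measured 481 ± 22.8 CPM (SD, n = 2) in vivo and 504 ± 45.7 CPM in 2D and did not pass the test (log2 fold change -0.07, adjusted p = 0.75 by edgeR). Psma5 measured 67.5 and 59.0 CPM in vivo but 21.3 and 6.92 CPM in D7 organoids (2.10, SE 0.32, adjusted p = 6.2e-05 by edgeR; 3.19 without D7 library 1), and Psma2 276 and 232 against 154 and 119 CPM (0.89, SE 0.18, adjusted p = 0.00083). Of the 4 non-catalytic β genes (median -0.07 in vivo against 2D and 0.30 against D7 organoids), Psmb4 was higher in vivo than in 2D (0.49, SE 0.14, adjusted p = 0.011 by edgeR) and Psmb3 lower (-0.52, SE 0.16, adjusted p = 0.016). Both calls were lost without in vivo library 2 (0.44, adjusted p = 0.064 by edgeR, and -0.42, adjusted p = 0.11) and without 2D library 2 (0.40, adjusted p = 0.093, and -0.49, adjusted p = 0.076). That of Psmb3 was also lost without 2D library 1 (-0.54, adjusted p = 0.052 by edgeR) and with library size alone (-0.33, adjusted p = 0.12). Psmb4 (0.57, SE 0.14, adjusted p = 0.0051 by edgeR) and Psmb2 (1.47, SE 0.26, adjusted p = 0.00034) were higher in vivo than in D7 organoids, where Psmb2 measured 31.8 and 20 CPM, and Psmb1 did not pass in either comparison.

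In the 19S cap, which binds tagged proteins and unfolds them, 3 of 6 ATPase genes and 8 of 13 non-ATPase genes were lower in vivo than in 2D, and none was higher (medians -0.49 and -0.47). With library size alone or without 2D library 1, 5 of the non-ATPase genes were called, and without D3 library 2, 5 of the ATPase genes were. The largest changes among the non-ATPase genes were those of Psmd8 (log2 fold change -1.19, SE 0.18, adjusted p = 3.5e-05 by edgeR) and Psmd14, the subunit that removes ubiquitin (-0.93, SE 0.17, adjusted p = 0.00034). Among the ATPase genes they were those of Psmc1 (-0.90, SE 0.16, adjusted p = 0.00017 by edgeR) and Psmc6 (-0.87, SE 0.16, adjusted p = 0.00035). Against D7 organoids the cap divided: Sem1, a small subunit of the lid, was at 303 and 209 CPM in vivo and 90.7 and 31.6 CPM in D7 organoids (2.04, SE 0.31, adjusted p = 8.1e-05 by edgeR; 3.01 without D7 library 1), whereas Psmd13 (-0.85, SE 0.19, adjusted p = 0.0023) and Psmc3 (-0.82, SE 0.16, adjusted p = 0.00061) were lower in vivo. In total 1 ATPase gene was higher and 2 lower in vivo than in D7 organoids, and 3 non-ATPase genes were higher and 2 lower (medians -0.19 and 0.09). Without in vivo library 1, and likewise without D7 library 2, 1 ATPase gene and 3 non-ATPase genes were called. For Psma5, Sem1 and Psmb2 the second D7 library was the lower of the pair, as it was for Psmb7 and Psme2.

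Of 8 assembly chaperone genes tested, 2 were higher and 2 lower in vivo than in 2D (median -0.23), and 3 were higher and 1 lower than in D7 organoids (median 0.33). Psmg4 (log2 fold change 1.31, SE 0.23, adjusted p = 0.00020 by edgeR) and Psmg2 (0.90, SE 0.23, adjusted p = 0.0052) were higher in vivo than in 2D, and Pomp, which matures new barrels, was lower (-0.47, SE 0.17, adjusted p = 0.033). The Pomp call was lost with library size alone (-0.29, adjusted p = 0.20 by edgeR), under the filter at a mean of 10 CPM (-0.41, adjusted p = 0.051), without in vivo library 2 (-0.36, adjusted p = 0.19) and without 2D library 1 (-0.21, adjusted p = 0.42), and that of Psmg2 without 2D library 2 (0.76, adjusted p = 0.060). Over the list, library size alone gave 3 higher and 0 lower, the filter at 10 CPM and the fit without 2D library 1 each gave 2 higher and 0 lower, and the fit without 2D library 2 gave 1 of each. Against D7 organoids Psmg1 (1.49, SE 0.33, adjusted p = 0.0018 by edgeR; 2.23 without D7 library 1), Psmg4 (1.38, SE 0.23, adjusted p = 0.00018) and Psmg2 (1.10, SE 0.23, adjusted p = 0.0015) were higher in vivo. Of 7 other regulators, 2 were lower in vivo than in 2D (median -0.36), namely Psme4, the activator PA200 (-1.30, SE 0.15, adjusted p = 1.9e-06 by edgeR), and Nfe2l2 (-1.23, SE 0.16, adjusted p = 5.7e-06). Without D3 library 2, 4 of the 7 were lower. Against D7 organoids 1 was higher and 2 were lower in vivo (median 0.03): Ddi2, the protease that activates Nfe2l1, was lower in vivo (-1.51, SE 0.16, adjusted p = 1.2e-06 by edgeR), as was Nfe2l2 (-1.07, SE 0.15, adjusted p = 4.2e-05), while Psme4 was higher (0.62, SE 0.15, adjusted p = 0.0043).

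Of 10 genes that load peptides onto MHC class I, the step after the proteasome, 4 were higher and 2 lower in vivo than in 2D (median log2 fold change 0.19), and 6 were higher and 1 lower in vivo than in D7 organoids (median 1.24). Tap1 measured 71.0 and 62.9 CPM in vivo, 22.3 and 29.3 CPM in D7 and 14.5 and 13 CPM in D3 organoids, and 9.20 CPM on average in 2D (in vivo against 2D 2.86, SE 0.25, adjusted p = 5.6e-08 by edgeR). Its group means had the order of those of its neighbour Psmb9, but the lower end of that order is not settled. D3 organoids against 2D did not pass the test for Tap1 (0.58, SE 0.26, adjusted p = 0.087 by edgeR) or Psmb9 (0.46, SE 0.45, adjusted p = 0.45). Exons of these 2 genes also overlap, and the strand used in counting is not stated. B2m, the light chain of MHC class I, did not follow this order: it averaged 484 CPM in vivo, 318 CPM in 2D, 97.2 CPM in D3 and 92.3 CPM in D7 organoids (in vivo against D7 organoids 2.39, SE 0.16, adjusted p = 6.3e-09 by edgeR). Thus B2m was lower in D7 organoids than in 2D (-1.78, SE 0.16, adjusted p = 1.0e-07 by edgeR), while Tap1, Psmb9, Psmb10 and Psmb11 were higher there. Over the 10 loading genes, 2 were called higher and 5 lower in D7 organoids than in 2D (median -0.37). Tap1 was among the 2 higher and B2m among the 5 lower, and 45.5% of all genes were called. Erap1, which trims peptides, was higher in vivo than in D7 organoids (1.09, SE 0.21, adjusted p = 0.00052 by edgeR), and Pdia3 was lower in vivo than in 2D (-0.85, SE 0.15, adjusted p = 0.00016).

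Of 13 tested genes of interferon signalling and class I control, 6 were higher and 1 lower in vivo than in 2D, 7 were higher in vivo than in D7 organoids and 10 higher in vivo than in D3 organoids (28.2% of all genes called), with none lower in either organoid comparison (medians 0.47, 0.98 and 1.24). Irf8, an interferon regulatory factor, measured 194 and 200 CPM in vivo, 86.7 and 89.1 CPM in D3 and 60.4 and 66.6 CPM in D7 organoids, and 7.15 CPM on average in 2D, so that D7 organoids were above 2D for this gene (3.14, SE 0.21, adjusted p = 3.5e-09 by edgeR). Over the 13 genes, 3 were called higher and 4 lower in D7 organoids than in 2D (median -0.02). The share called over all genes was 45.5%. Socs1, a feedback inhibitor of the pathway, was higher in vivo than in 2D (2.53, SE 0.52, adjusted p = 0.00086 by edgeR) and than in D7 organoids (4.38, SE 0.60, adjusted p = 2.5e-05). The D7 libraries held only 12 and 2 Socs1 counts, the second below the floor of 3. The size of the D7 difference is therefore uncertain, and it was 5.71 without D7 library 1. The thymocyte sum was high in the same in vivo libraries, and its part in these differences was not tested.

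**Figure D4:**
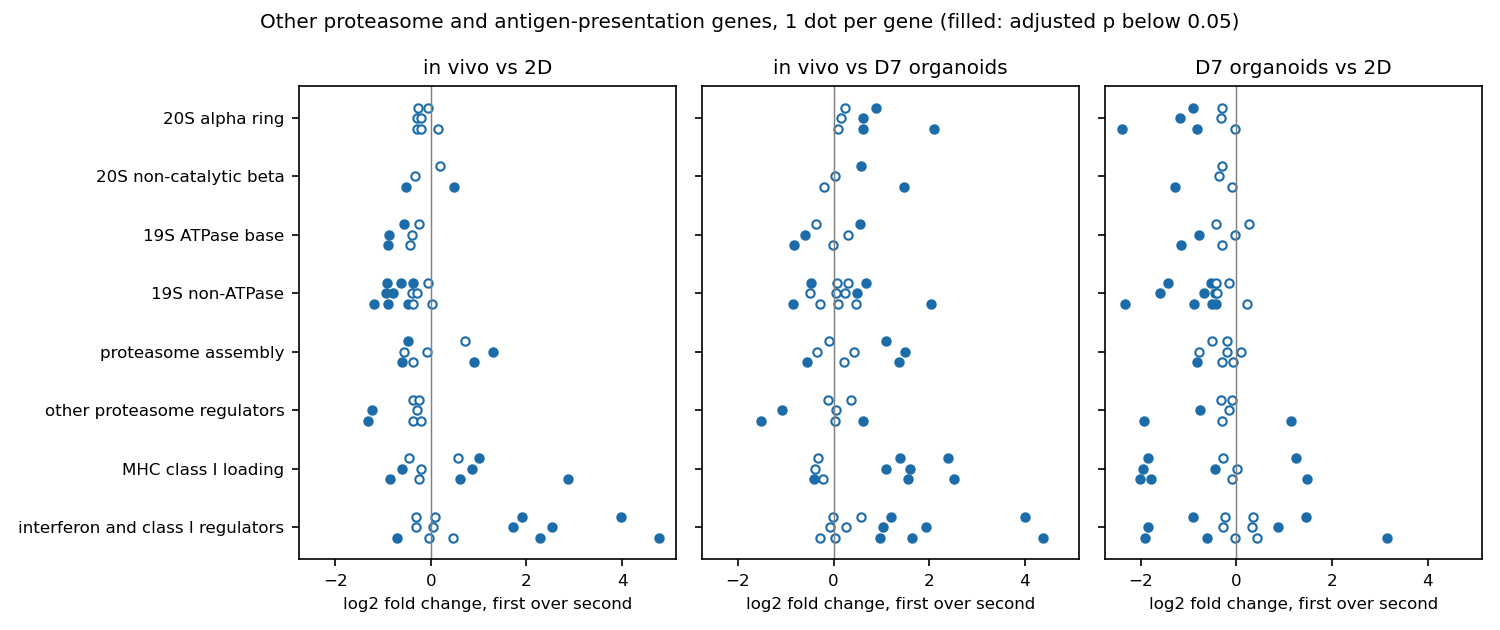
The log2 fold change of each tested gene of 8 lists of other proteasome, MHC class I and interferon genes in 3 comparisons, first-named group over second, with 1 dot per gene and filled dots where the adjusted p was at most 0.05. Dots of the 19S cap lie mostly left of 0 for in vivo against 2D, between -1.19 and 0.03 for its non-ATPase genes, while those of the interferon list reach 4.78.

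Among 8238 genes with a group mean of at least 20 CPM, the pattern most like that of Psmb11 over the 8 libraries was that of Rgs5, a regulator of G-protein signalling (Pearson's r of log2(CPM + 1) 0.999), followed by Hdac11, Ccnl1, Mc5r and Clic5 (0.989 to 0.990). Rgs5 measured 25.1 and 23.8 CPM in vivo, 10.5 and 12.1 CPM in D7 organoids and at most 0.557 CPM in the 2D and D3 libraries. For Psmb8, the closest were Hspa1a, a heat shock protein (0.989), Grap2, an adaptor of T cell receptor signalling (0.987), Utp14a, Fbxw7 and Agtpbp1 (0.981 to 0.983). Grap2 measured 51.9 and 33.9 CPM in vivo and at most 5.57 CPM in any cultured library. The 8 points form 4 groups of replicates, so these values describe likeness and carry no test.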

How the data were processed

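Bulk RNA was profiled in 8 libraries, 2 per group. The authors made QuantSeq 3′ mRNA libraries, mapped the NextSeq 500 reads with STAR on build GRCm39, and deposited unnormalised counts of reads per Ensembl gene. Per the submitters' notes they worked in R 4.1.2 with edgeR and limma. The annotation release, the strand setting of the counting and how multiply matching reads were handled are not given in the sources used here. Of 56923 gene identifiers, 56236 matched GENCODE M39, from which symbols and GRCm39 positions were taken.

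Counts were analysed in R 4.3.3 with edgeR 4.0.16. A gene was kept if 3 or more libraries held it at 1 CPM or above, which left 14504 genes, and TMM factors were between 0.880 and 1.09. A model of the 4 group means was fitted to all 8 libraries, and the 6 comparisons were tested by quasi-likelihood, with p adjusted by Benjamini-Hochberg and called at 0.05 or below. Shares at a site were computed per library in Python 3.11.15 with exact Clopper-Pearson intervals from scipy 1.17.1. DESeq2 1.42.0 and limma 3.58.1 served as alternatives, beside other scalings, filters, a replicate block, ribosomal RNA left out, each library left out in turn and, chosen after seeing the data, Psme2 and Psme2b summed. The fit was tested on simulated counts. Depth was 5084715 to 7612532 counts per library.

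The 10 genes were chosen by gene family and not by their values. Earlier results of these data were known when they and the gene and marker lists were chosen. Named from each list were the 2 genes with the highest mean CPM and, in vivo against 2D and against D7 organoids, the 2 called genes with the largest change. A gene that this rule names is not reported here. Paaf1, an assembly gene, had no match and was not used here. Likeness to Psmb11 and Psmb8 was the Pearson correlation over the 8 libraries, with the 5 closest genes named. The 18S ribosomal RNA gene held 16.6% to 24.3% of a library's counts.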

Additional observations from a re-analysis of the deposited data

How the results depend on the processing

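Over 60 log2 fold changes and 17 alternatives, 1014 values were computed, of which 958 kept their direction and side of the threshold, 22 lost a call, 17 gained one and 17 changed sign. Psmb8 could not be tested under the filter at a mean of 10 CPM. No value that changed sign had been called. The number of the 10 genes called stayed within 1.5 times the main count under every alternative, between 6 and 8 in vivo against 2D and against D7 organoids, 4 and 5 against D3 organoids, 4 and 7 in D7 organoids against 2D, 3 and 5 in D3 organoids against 2D, and 4 and 6 between organoid days. Same-numbered libraries were not treated as pairs in the main fit. Their deviations correlated at 0.0257 to 0.132 between groups, and such values cannot show whether groups shared mice or a batch. With a replicate block the counts were 8, 8, 5, 6, 4 and 6 in the same order. It added calls for Psmb6 in vivo against 2D (-0.41, adjusted p = 0.029 by edgeR) and against D7 organoids (-0.43, adjusted p = 0.027) and for Psme2 in vivo against D3 organoids (0.55, adjusted p = 0.033).

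Changes of sign concerned small differences. With library size as the only scaling, Psmb5 in vivo against 2D was 0.0007, Psmb6 in D3 organoids against 2D was 0.0243 and Psme2 there was 0.0251. Psmb6 in D7 organoids against 2D was -0.0214 with DESeq2's size factors, -0.0215 with its Wald test, -0.0124 without a filter and -0.0262 without ribosomal RNA genes, and Psme3 between organoid days was 0.0204 under the filter at a mean of 10 CPM. With each library left out in turn, Psmb6 ranged from -0.37 to 0.0111 in vivo against D3 organoids and from -0.0741 to 0.11 in D7 organoids against 2D, and Psmb7 from -0.39 to 0.0237 in vivo against D3 organoids. Likewise Psmb11 ranged from -0.10 to 0.81 and Psme2 from -0.45 to 0.0263 in D3 organoids against 2D, Psme1 from -0.10 to 0.54 in vivo against D3 organoids, and Psme3 from -0.26 to 0.17 between organoid days. The cause of these changes was not tested. Psmb8, Psmb9 and Psmb11 rest on 3 to 35 counts in 2D and D3 libraries, which limits what could be detected between those groups.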

Other observations

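The lists around the proteasome held differences between organoid days that no comparison above describes. Between D7 and D3 organoids, where 20.8% of all genes were called, 5 of 13 interferon and class I control genes were called, all higher on day 7 (median log2 fold change 0.38, beside 0.06 for all genes), and 2 were called without D7 library 2. Of the MHC class I loading genes 3 of 10 were higher and 1 was lower on day 7, and 0 were called by edgeR without D7 library 2. By DESeq2 and limma-voom on all libraries 5 and 4 of them were called. Tap1 was among those higher on day 7 (0.90, SE 0.24, adjusted p = 0.012 by edgeR), a call lost without D7 library 2 (0.70, adjusted p = 0.16) or D3 library 2 (0.75, adjusted p = 0.11). Of 8 assembly genes 3 were lower on day 7, Psmg1 (-1.30), Psmg2 (-1.02) and Psmd5 (-0.89), and 1 of these calls was left without D7 library 2.

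Psme4, which encodes the activator PA200, had the clearest separation of 2D from all other groups among the regulators named. It averaged 311 CPM in 2D, 126 CPM in vivo, 91.0 CPM in D3 and 82.1 CPM in D7 organoids, and D3 organoids were below 2D (log2 fold change -1.77, adjusted p = 7.1e-08 by edgeR). Ddi2 averaged 59.0 CPM in vivo, 75.8 CPM in 2D, 138 CPM in D3 and 168 CPM in D7 organoids. D3 organoids were above 2D after the same number of days (0.87, adjusted p = 0.00028 by edgeR), and D7 against D3 organoids did not pass the test (0.28, adjusted p = 0.22).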
